A study of Mus musculus with 24 samples.

Results

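The data compared R1 mouse embryonic stem (ES) cells carrying the short hairpin RNA shCdk8-1, directed against Cdk8, with R1 cells carrying the control hairpin shNTC, both taken 13 days after lentiviral infection. The 2 groups were found by their array titles and hold 6 of the 24 arrays of the series, 3 for each hairpin. Every array set Cy5-labelled RNA of the cells against a Cy3-labelled universal mouse reference RNA, a mixture of mouse cell lines, with no dye swap. Values are therefore log2 ratios to that reference, and a difference between groups is a difference of 2 such ratios.

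All 8 groups of the series entered a single fit, so each of the 24 arrays bears on the errors given here. The further groups whose values are described were shCdk8-1 and shNTC at day 8, a second Cdk8 hairpin (shCdk8-2) at day 13, and 2 hairpins against Med12 (shMed12-1 and shMed12-2) at day 13. All groups share the R1 line and a lentiviral hairpin, and no uninfected cells were analysed here. Whether the 3 replicates of a group, termed biological in the labels, came from separate infections or cultures is not stated, so p-values reflect only how far these arrays spread, which may be technical. The results concern hairpins in a single ES cell line, and the labels name no step that selected infected cells.

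Cdk8 is the cyclin-dependent kinase of the Mediator kinase module, which it forms with cyclin C, Med12 and Med13. Mediator carries signals from transcription factors at enhancers to RNA polymerase II, and the kinase module binds it reversibly and can act as a repressor or an activator depending on the gene. Cdk19 is a close paralogue of Cdk8 that can take its place in the module. In ES cells Mediator occupies the enhancers of the pluripotency genes, whose products (Oct4, Sox2, Esrrb and others) hold the cells in an undifferentiated state.

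The RNA had the profile of ES cells in both groups. All 9 ES cell markers (such as Pou5f1, Sox2 and Zfp42) were above background on all 6 arrays, and their mean log2 ratio lay between 5.77 and 5.90 on the shCdk8-1 arrays, against 6.04 to 6.15 on the shNTC arrays, with 2 called lower. The 8 fibroblast and feeder markers stood far below the reference, at means of -4.70 to -4.11 with shCdk8-1 against -4.86 to -4.22 with shNTC, and none was called changed. The 4 tested trophoblast markers had means of 0.32 to 0.45 with shCdk8-1 against 0.16 to 0.33 with shNTC, and 1, Gata3, was called higher. Between 68.3% and 72.4% of spots were well above background on the shCdk8-1 arrays, against 62.9% to 67.2% on the shNTC arrays, so the groups did not overlap in this measure. No slide carried arrays of both groups. Slide was therefore also fitted as a block, estimated through the slides' other arrays, and the counts of that fit are given beside the main groups of genes.

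Promoter sequences are shown for genes of the groups described further on: actin genes and their regulator, interferon-induced GTPases, and an enzyme of cholesterol synthesis. They come from RefSeq (build GRCm38.p6), run 5' to 3' on the gene's strand upstream of the annotated start, and carry the searched motif in capitals, on either strand. The first motif is the CArG box, the site known to bind serum response factor (SRF).

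Actc1 (chr2:114052876-114052975, minus strand): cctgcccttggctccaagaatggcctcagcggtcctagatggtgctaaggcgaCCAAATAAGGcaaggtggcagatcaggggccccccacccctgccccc
Acta1 (chr8:123894796-123894895, minus strand): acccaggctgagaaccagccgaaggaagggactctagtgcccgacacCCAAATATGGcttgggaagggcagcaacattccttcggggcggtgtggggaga
Fhl2 (chr1:43196782-43196881, minus strand): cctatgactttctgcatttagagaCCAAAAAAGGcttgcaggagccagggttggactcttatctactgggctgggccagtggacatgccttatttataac
Srf (chr17:46556183-46556282, minus strand): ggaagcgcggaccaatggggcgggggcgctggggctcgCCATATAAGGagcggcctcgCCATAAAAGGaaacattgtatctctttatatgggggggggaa

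The next motif is GAAA, any 2 bases and GAAA again, the core of the interferon-stimulated response element, printed here as it or its reverse complement occurs. Capitals in Gbp3 cover 2 overlapping matches.

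Gbp2b (chr3:142594667-142594766, plus strand): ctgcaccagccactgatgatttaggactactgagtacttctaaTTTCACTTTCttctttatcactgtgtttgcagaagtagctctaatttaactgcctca
Gbp3 (chr3:142559944-142560043, plus strand): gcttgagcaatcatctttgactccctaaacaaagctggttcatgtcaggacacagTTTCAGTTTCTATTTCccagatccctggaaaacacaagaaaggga
Gbp2 (chr3:142620563-142620662, plus strand): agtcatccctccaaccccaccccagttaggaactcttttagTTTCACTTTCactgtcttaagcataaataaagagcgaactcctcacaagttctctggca
Igtp (chr11:58199456-58199555, plus strand): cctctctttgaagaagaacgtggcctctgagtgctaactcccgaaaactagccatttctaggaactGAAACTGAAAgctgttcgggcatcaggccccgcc

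The last is CACCCCAC, the core of the sterol regulatory element, in the promoter of Hmgcs1, which encodes an early enzyme of cholesterol synthesis.

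Hmgcs1 (chr13:119690171-119690270, plus strand): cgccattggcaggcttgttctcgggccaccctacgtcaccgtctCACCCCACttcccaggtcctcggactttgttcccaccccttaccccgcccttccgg

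Cdk8 transcript fell in the shCdk8-1 cells. Cdk8, on chromosome 5, was at -1.37, -1.54 and -1.54 on the 3 shCdk8-1 arrays, against -0.57, -0.57 and -0.46 on the 3 shNTC arrays. The groups lay well apart, with means of -1.48 ± 0.10 with shCdk8-1 and -0.53 ± 0.07 with shNTC (SD, n = 3 each). The difference was -0.95 on the log2 scale (SE 0.07, limma adjusted p = 5.0e-08), which is 1.93-fold lower. A second, dimmer Cdk8 probe gave a smaller difference of -0.43 (adjusted p = 0.0038). Both probes put Cdk8 lower, and how much transcript remained depends on the probe.

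The other measured genes of the kinase module did not pass the test. Cdk19, the paralogue, was at -1.71, -1.71 and -1.81 with shCdk8-1, against -1.50, -1.60 and -1.55 with shNTC (difference -0.19, adjusted p = 0.23). The 2 groups of Cdk19 did not overlap, as in 35.8% of all genes, but the difference did not pass after adjustment over all genes. Ccnc, which encodes cyclin C, differed by 0.04 (adjusted p = 0.86), Med12 by 0.09 (adjusted p = 0.54) and Med13l by -0.06 (adjusted p = 0.76). Among 23 tested subunits of core Mediator, 2 rose and 1 fell, with a median difference of 0.00 and a share close to that of all genes (12.6% called). Med7 rose by 0.21 and Med11 fell by 0.20 (adjusted p = 0.0076 for each), and neither kept its call with slide as a block. The count of 2 that rose was 1 without any of the 6 arrays other than shCdk8-1 replicate 1.

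**Figure D1:**
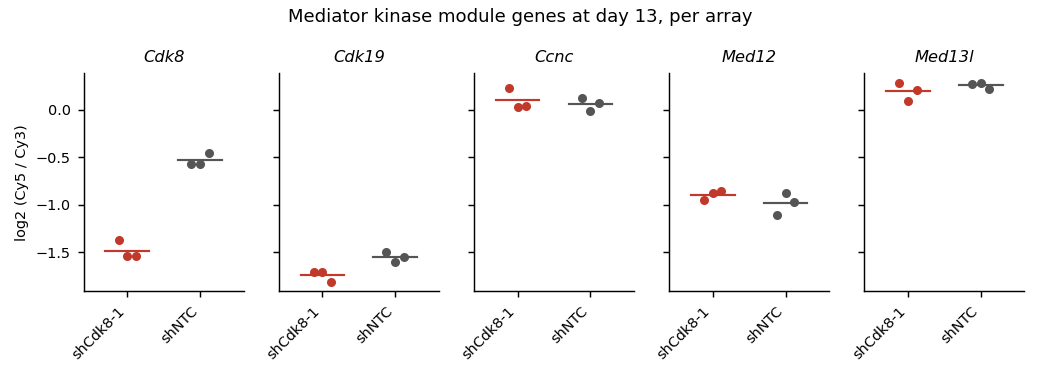
Log2 ratio of Cy5 (cells) over Cy3 (reference) for 5 genes of the Mediator kinase module at day 13. Points are the 3 arrays of each hairpin and bars their means. Cdk8 lies between -1.54 and -1.37 with shCdk8-1, below the -0.57 to -0.46 with shNTC, while Ccnc, Med12 and Med13l overlap between the groups.

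Across all genes many changes were called, most of them small in the loess-normalized ratios. Of 22394 genes tested, 2822 (12.6%) passed an adjusted p under 0.05, of which 1455 (6.50%) were higher with shCdk8-1 and 1367 (6.10%) lower. Of the called genes, 89.1% differed by less than 1.5-fold. In these ratios 31 genes (0.138%) were called and at least 2-fold apart, 19 higher and 12 lower, against 236 with the Feature Extraction ratio and 223 with the authors' deposited value table. The 3 arrays of each group did not overlap for 35.8% of genes, and the median difference over all genes was 0.01. Fitting slide as a block gave 890 called genes (542 higher, 348 lower), and 782 of the 2822 kept their call. All 2822 kept their direction. With slide as a random block instead, 2826 genes were called and 2796 of the 2822 kept their call (consensus correlation -0.03). Elsewhere the slide-block fit is the first of these. Group counts under other settings stand beside calls over all genes of 2234 higher and 2536 lower with the Feature Extraction ratio. These were 1513 and 2127 in the Cy5 channel alone, and 138 and 209 with median centring. With each of the 6 arrays left out in turn 1030 to 1257 genes were called higher and 911 to 1132 lower. Group counts with an array left out stand beside these.

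The largest increases were in genes of several unrelated kinds. Nsg2, a neuronal endosomal protein, was at 4.77, 4.28 and 4.36 with shCdk8-1, against 2.76, 2.64 and 2.68 with shNTC (difference 1.77, SE 0.35, adjusted p = 0.0018). Acta2, smooth muscle actin, was at -1.54, -1.49 and -1.51 with shCdk8-1, against -2.89, -2.83 and -3.01 with shNTC (1.39, SE 0.06, adjusted p = 3.9e-11). Actc1, cardiac actin, was at -1.01, -0.85 and -0.96 with shCdk8-1, against -2.35, -2.16 and -2.25 with shNTC (1.32, adjusted p = 3.2e-08). In each of these genes the 3 shCdk8-1 arrays all lay more than the spread of either group above the shNTC arrays. Only genes that were called and did not overlap between the groups were listed, so a gap was partly set by this choice.

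Further genes among the 15 highest encode metabolic, signalling and developmental proteins. Acss1, a mitochondrial acetyl-CoA synthetase, rose by 1.27 (SE 0.08, adjusted p = 3.1e-09) and Stac3, an adaptor of the muscle calcium channel, by 1.25 (SE 0.11, adjusted p = 1.4e-07). Cav1, the caveolae coat protein, rose by 1.22, Tmprss5, a membrane serine protease, by 1.21, and Glod5 by 1.16. Thbs1, the matrix glycoprotein thrombospondin, rose by 1.13 and Gbp2b, an interferon-induced GTPase, by 1.10. Sema3e, a secreted guidance cue, rose by 1.09, and the transcription factors Dach1 and Zic1 rose by 1.08 and 1.06. Ier5, an immediate early gene, rose by 1.05 and Kctd12b by 1.03. Of these 15 genes, 13 kept their call with slide as a block; Nsg2 (adjusted p = 0.099) and Tmprss5 (adjusted p = 0.20) did not. Further probes differed for some: Cav1 gave 0.18 and Dach1 0.02 on a dimmer probe, and a dimmer Acta2 probe gave 0.25, while 2 further Thbs1 probes gave 0.67 and 0.53 and a second Zic1 probe 1.00.

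The largest decreases included genes of the germ line and of pluripotency. Khdc3, a maternal factor of the oocyte, was at 4.05, 3.89 and 3.96 with shCdk8-1, against 5.69, 5.55 and 5.65 with shNTC (difference -1.66, SE 0.25, adjusted p = 9.8e-05). Plac8 was at -1.72, -1.72 and -1.64 with shCdk8-1, against -0.31, -0.44 and -0.41 with shNTC (-1.31, SE 0.08, adjusted p = 3.4e-09). Tbx3, a T-box factor of the naive pluripotency network, was at 1.53, 1.35 and 1.28 with shCdk8-1, against 2.50, 2.56 and 2.60 with shNTC (-1.17, SE 0.08, adjusted p = 5.4e-09). The groups did not overlap in any of the 3 genes, but this was a condition for listing them, so it adds no evidence.

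The remaining genes of the 15 lowest were of several kinds. Reep4, which clears endoplasmic reticulum from mitotic chromosomes, fell by 1.16 (SE 0.07, adjusted p = 4.7e-09) and Hal, the histidine ammonia-lyase, by 1.01 (SE 0.08, adjusted p = 5.7e-08). Slc52a3, a riboflavin transporter, fell by 0.96 and 2410141K09Rik by 0.93. These 4 genes kept their call with slide as a block, as did Khdc3, Plac8, Tbx3 and Cdk8. The other 7 lost it: Ly6g6e (-1.22), Slc9b2 (-1.16), Cbln1 (-1.03), the testis chaperone Clgn, Hkdc1 (-0.98), the retinol carrier Rbp4 (-0.98) and the sperm lactate dehydrogenase Ldhc (-0.95). A second Cbln1 probe gave -0.14 (adjusted p = 0.30).

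**Figure D2:**
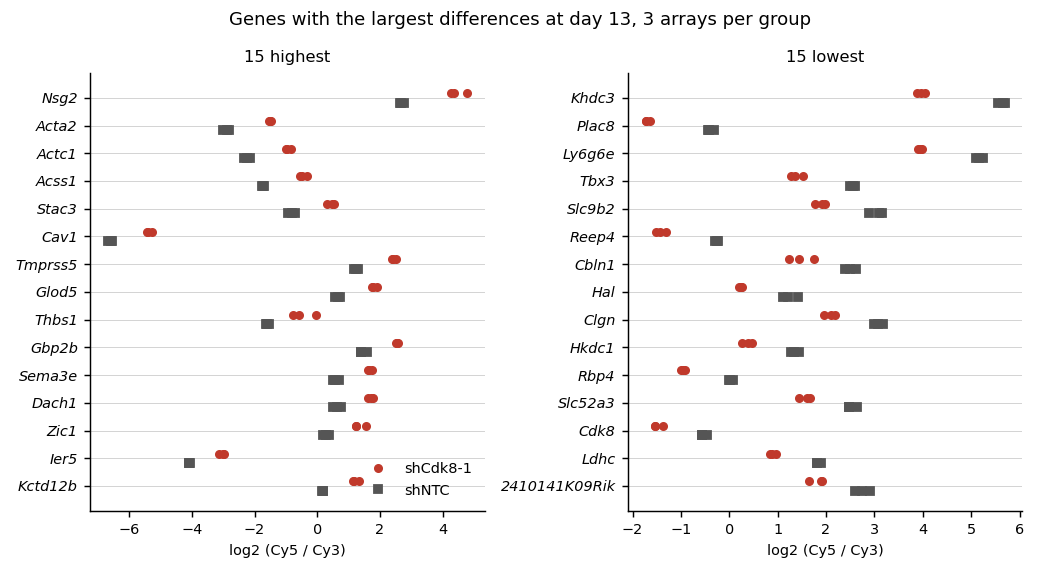
Log2 ratio of Cy5 over Cy3 at day 13 for the 15 genes with the largest increases and the 15 with the largest decreases among called genes with a symbol whose groups did not overlap. Circles are the 3 shCdk8-1 arrays and squares the 3 shNTC arrays of each gene. Nsg2 shows the widest gap on the higher side (1.77) and Khdc3 on the lower side (-1.66).

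Genes of the actin cytoskeleton and targets of SRF were the gene group with the greatest share of called members. SRF is a transcription factor that responds to actin dynamics and drives actins, tropomyosins, calponins and other contractile genes. Of 25 tested members 19 rose and 1 fell, against 6.50% and 6.10% of all genes, with a median difference of 0.38 against 0.01 for all genes. Beside Acta2 and Actc1, Fhl2, a LIM-domain cofactor, rose by 0.92 (SE 0.08, adjusted p = 1.1e-07) and Tpm1, a tropomyosin, by 0.70 (SE 0.08, adjusted p = 4.2e-06). Acta1, skeletal actin, was at 1.02, 0.99 and 0.95 with shCdk8-1, against 0.38, 0.35 and 0.37 with shNTC (0.62, adjusted p = 2.3e-05). Srf itself, named for its role after its value was seen, rose by 0.26 (adjusted p = 0.010). Des, which encodes the muscle intermediate filament desmin, was the member that fell, by 0.64 (adjusted p = 4.2e-04). The slide-block fit had 10 members risen and 1 fallen. Median centring of the arrays instead of loess gave 3 risen.

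The CArG box was found in the promoter windows of 6 of the 21 members that have a window around an annotated start, and in 1.81% of all genes with a window. The 6 were Acta1, Actc1, Fhl2 and Srf, printed above, with Cnn2 and Vcl (chosen because they matched), and all 6 were among the 16 called higher that have a window. In Actc1 the motif begins 47 bases before the start and in Acta1 73. In the Fhl2 window printed here it begins at 96. A second Fhl2 window, at another annotated start, holds a match as well. The list holds known SRF targets, so a share above that of all genes is partly set by how the list was made. A match describes these letters only, and binding was not measured.

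Other genes of adhesion and the cell surface rose as well. Of 24 annexins, S100 proteins and caveolins, 6 rose and 1 fell, where 6.50% of all genes rose and 6.10% fell. Anxa1, a phospholipid-binding regulator of inflammation, was at -3.84, -3.83 and -3.68 with shCdk8-1, against -4.65, -4.68 and -4.56 with shNTC (0.85, SE 0.06, adjusted p = 2.0e-08). Of 23 cadherins and genes of the epithelial-mesenchymal transition, 7 rose and none fell, among them Zeb2 (0.90, adjusted p = 0.0016), Cdh2, N-cadherin (0.85, adjusted p = 3.5e-05), Vim (0.72, adjusted p = 2.1e-06) and Zeb1 (0.49, adjusted p = 3.6e-05). Of 27 matrix, coagulation and protease genes 8 rose and 2 fell, and none fell without shCdk8-1 replicate 2, shNTC replicate 1 or shNTC replicate 2. Prss23, a secreted protease, rose by 0.97 (adjusted p = 7.5e-07), but its second probe gave 0.01. Of 14 genes that respond to YAP, 4 rose and none fell. With slide as a block 6 of the cadherin and transition genes, 3 of the annexin group, 3 of the matrix group and 2 of the YAP group rose, and none of these fell. Without shCdk8-1 replicate 3 or without shNTC replicate 3, 3 of the annexin group rose in place of 6. Over all genes 1257 and 1061 rose in those fits, against 1455 in the main fit. None of the 8 defining fibroblast markers was called. Of a longer list of 23 fibroblast and feeder genes 5 rose, among them Vim, S100a4, Mmp2, Col5a1 and Sparc, and 1 did with slide as a block. That count was 2 without shCdk8-1 replicate 1, and 3 without shCdk8-1 replicate 3, shNTC replicate 2 or shNTC replicate 3. Their part in the other values was not tested.

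Immediate early genes, which respond within minutes to growth factors and stress, rose in part. Of 37 tested 14 rose and 2 fell, against 6.50% and 6.10% of all genes, with a median of 0.16, and the others were not called. Ier5 was at -2.97, -3.12 and -3.00 with shCdk8-1, against -4.10, -4.10 and -4.06 with shNTC (1.05, SE 0.08, adjusted p = 3.2e-08). Jun rose by 0.55 (adjusted p = 0.0078) and Gadd45a by 0.46 (adjusted p = 1.4e-05). Egr1, a direct target of the ERK pathway, fell by 0.41 (adjusted p = 0.0027), and of 19 ERK feedback and FGF target genes 3 rose and 3 fell. In the slide-block fit 5 immediate early genes rose, Ier5 and Gadd45a among them, and none fell; Jun and Egr1 lost their calls. Of the ERK group 1 rose and none fell in that fit.

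The core pluripotency factors stayed high in both groups, and most genes of that network were not called. Pou5f1, which encodes Oct4, was at 6.42, 6.24 and 6.29 with shCdk8-1, against 6.65, 6.46 and 6.66 with shNTC (-0.27, adjusted p = 0.58). Sox2 differed by 0.02 (adjusted p = 0.99), Esrrb by -0.34 (adjusted p = 0.42), Zfp42 by -0.37 (adjusted p = 0.54) and Myc by -0.13 (adjusted p = 0.28). The arrays of Pou5f1, Zfp42 and Esrrb did not overlap between the groups, yet the spread of these bright probes over the whole series was wide, with an SE of 0.26 for Pou5f1. Part of that spread lay in 2 arrays of other groups whose ratios were pulled toward 0 (slope 0.79 on the other replicates of each). On replicate 1 of shCdk8-1 at day 8 Zfp42 was at 7.56, against 9.03 and 9.19 on the other replicates. On replicate 3 of shMed12-1 it was at 7.27, against 8.49 and 8.60. Pou5f1 was at 4.55 on the first, against 5.66 and 6.12, but at 5.37 on the second, against 5.48 and 5.57. The adjusted p-values given for these genes come from the limma fit that holds both arrays, so a missing call does not show that a gene was unchanged. More pluripotency genes were called lower without the 2 arrays, as given below. Klf4 fell by 0.19 (adjusted p = 0.033), a call that was lost when shCdk8-1 replicate 2 or 3 or shNTC replicate 1 or 3 was left out.

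Over the 34 tested pluripotency genes 1 rose and 7 fell, against 6.50% and 6.10% of all genes, with a median of -0.14. Dnmt3l, a cofactor of de novo DNA methylation, fell by 0.54 (adjusted p = 0.0013), Utf1, an ES cell chromatin factor, by 0.47 (adjusted p = 0.0039) and Pecam1, a surface adhesion protein, by 0.39 (adjusted p = 0.0036). Socs3, a feedback inhibitor of LIF signalling, was the member that rose (0.27, adjusted p = 0.0056). The slide-block fit had 1 member risen and 2 fallen, and Dnmt3l, Utf1, Pecam1 and Socs3 were not called. Without shNTC replicate 3, 4 members fell in place of 7, where 915 of all genes fell in place of 1367. By contrast 12 fell (median -0.29) with the Feature Extraction ratio or the authors' deposited value table, 13 in the Cy5 channel alone and 14 without the 2 arrays of other groups whose ratios were pulled toward 0. Over all genes these settings called 2536, 2556, 2127 and 2019 genes lower, against 1367 in the main fit.

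Genes of the later, primed epiblast rose in part. Of 18 tested 7 rose and none fell (median 0.24), where 6.50% of all genes rose and 6.10% fell. They were led by Cdh2 and by Sall2, a zinc-finger factor. Sall2 was at 1.90, 1.70 and 1.70 with shCdk8-1, against 1.06, 0.95 and 1.03 with shNTC (0.75, SE 0.08, adjusted p = 3.0e-06). Pim2, a kinase downstream of STAT3, rose by 0.52 (adjusted p = 4.7e-04) and Lef1, a WNT effector, by 0.44 (adjusted p = 9.9e-04). Cdh2, Sall2 and Lef1 kept their calls with slide as a block, and Pim2 did not.

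Primitive endoderm genes fell in part. Of 25 tested 1 rose and 7 fell, against 6.50% and 6.10% of all genes, with a median of -0.13. Sox7, a transcription factor of that lineage, was at -0.30, -0.26 and -0.12 with shCdk8-1, against 0.70, 0.53 and 0.46 with shNTC (-0.80, SE 0.09, adjusted p = 4.8e-06). Sox17 fell by 0.59 (adjusted p = 0.0038), with a second probe at -0.95. Gata6 fell by 0.86 on its brightest probe (adjusted p = 3.5e-04), but 2 dimmer probes gave -0.05 and 0.09. The basement membrane collagen Col4a1 fell by 0.52 (adjusted p = 5.0e-05) and the collagen hydroxylase P4ha2 by 0.53 (adjusted p = 1.6e-05). In the slide-block fit 3 members fell, among them Sox7, Col4a1 and P4ha2. The mean marker level of this lineage (7 markers, 3 of them called lower) lay at -1.65 to -1.62 with shCdk8-1, against -1.28 to -1.16 with shNTC. In bulk RNA, fewer cells of a type and less RNA per cell cannot be told apart.

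Genes of the oocyte and germ line fell in part, 10 of 41 with none rising (median -0.23), where 6.10% of all genes fell and 6.50% rose. Beside Khdc3 and Ldhc, Mov10l1, which acts in piRNA production, fell by 0.64 (adjusted p = 0.0043) and Rpl39l, a testis ribosomal protein, was at 0.63, 0.72 and 0.66 with shCdk8-1, against 1.25, 1.21 and 1.24 with shNTC (-0.56, SE 0.06, adjusted p = 1.7e-06). In the slide-block fit 4 members fell, including Khdc3 and Rpl39l, while 16 fell with the Feature Extraction ratio and 20 in the Cy5 channel alone. Over all genes these fits called 348, 2536 and 2127 genes lower, against 1367 in the main fit.

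Some neural and Notch genes rose, and most were not called. Of 30 neural genes 7 rose and none fell (median 0.11), where 6.50% of all genes rose and 6.10% fell. In the slide-block fit 5 of 30 rose. Meis2, a homeobox factor, was at -0.42, -0.37 and -0.45 with shCdk8-1, against -1.45, -1.40 and -1.48 with shNTC (1.03, SE 0.09, adjusted p = 2.9e-07), and a second probe gave 0.88. Nes, the intermediate filament nestin of neural progenitors, rose by 0.73 (SE 0.05, adjusted p = 2.1e-08). Fabp7, a fatty acid carrier of radial glia, was not well above background on any shNTC array, and its ratio differed by 0.61 (adjusted p = 4.2e-04). In the Cy5 channel, which the background call concerns, it was at least 1.56-fold higher with shCdk8-1. That bound sets the Cy5 mean of shCdk8-1 against, on each shNTC array, the higher of the probe's own signal and the dimmest signal well above background.

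Of 22 Notch ligands, modifiers and HES factors 5 rose and none fell (median 0.07), where 6.50% of all genes rose and 6.10% fell. Hes6, an inhibitor of Hes1, was at 1.49, 1.61 and 1.55 with shCdk8-1, against 0.63, 0.54 and 0.56 with shNTC (0.97, SE 0.05, adjusted p = 1.1e-10). Dll1, a Notch ligand, rose by 0.90 (adjusted p = 0.0023) and Jag1, another ligand, by 0.59 (adjusted p = 6.1e-04). Hes6 kept its call with slide as a block, while Dll1 and Jag1 did not. Of 26 HOX genes 3 rose and none fell, so 11.5% were called, below the 12.6% of all genes. Among them were Hoxb2 (0.84, adjusted p = 8.3e-06) and Hoxb13 (0.64, adjusted p = 2.7e-06), both also called in the slide-block fit. With the Feature Extraction ratio 7 HOX genes rose, where 2234 of all genes did, against 1455 in the main fit.

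Genes of the interferon response and of antigen presentation rose in part. Of 40 interferon-responsive genes and RNA sensors 10 rose and 1 fell (median 0.15), and of 16 genes of MHC class I and antigen processing 6 rose and none fell (median 0.26). The shares of all genes were 6.50% risen and 6.10% fallen. Gbp2b was at 2.59, 2.52 and 2.53 with shCdk8-1, against 1.58, 1.38 and 1.38 with shNTC (1.10, SE 0.13, adjusted p = 5.7e-06). Its relatives Gbp3 and Gbp2 rose by 0.91 (adjusted p = 9.2e-05) and 0.76 (adjusted p = 2.6e-06). Psmb8, a subunit of the immunoproteasome, was at -2.41, -2.36 and -2.37 with shCdk8-1, against -3.32, -3.33 and -3.41 with shNTC (0.97, SE 0.12, adjusted p = 1.6e-05). B2m, the invariant chain of MHC class I, rose by 0.54 (adjusted p = 0.0018) and Ifitm3, a membrane restriction factor, by 0.55 (adjusted p = 1.1e-05).

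With the Feature Extraction ratio 18 interferon genes rose and 4 fell, where 2234 of all genes rose and 2536 fell. With slide as a block 6 interferon genes and 1 antigen presentation gene rose, and B2m lost its call. The response element core lay in the windows of 21 of the 31 interferon genes that have one, and of 3.99% of all genes. It was present in 8 of the 9 that rose and have a window, and also in members that were not called, such as Isg15 and Oas1a. Of 15 antigen presentation genes with a window 5 held it. The interferon list holds genes known to respond to interferon, so its share above that of all genes is partly set by how the list was made.

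Cholesterol and fatty acid synthesis genes rose modestly. Of 37 tested 13 rose and 1 fell (median 0.16), against 6.50% and 6.10% of all genes. Hmgcs1 was at 0.31, 0.15 and 0.08 with shCdk8-1, against -0.41, -0.40 and -0.37 with shNTC (0.57, SE 0.06, adjusted p = 2.1e-06). Sqle, squalene epoxidase, rose by 0.53 (adjusted p = 7.1e-06), Msmo1, a sterol oxidase, by 0.52 (adjusted p = 1.5e-05) and Cyp51, the lanosterol demethylase, by 0.43 (adjusted p = 0.0012). Abcg1, which exports cholesterol, was the member that fell (-0.52, adjusted p = 5.1e-04). In the slide-block fit 10 rose and 1 fell, while with median centring none was called. CACCCCAC was in the windows of 2 of 25 members, and of 3.3% of all genes.

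Metabolic, growth and imprinted genes gave smaller counts. Of 28 unfolded protein genes 10 rose and 1 fell, led by Herpud1, a factor of protein disposal from the endoplasmic reticulum (0.69, SE 0.07, adjusted p = 2.7e-06). In this group 5 rose without shNTC replicate 1 and 6 without shCdk8-1 replicate 1 or shNTC replicate 2. Over all genes 1030, 1107 and 1118 rose in those fits, in that order, against 1455 in the main fit. In the Cy5 channel alone 1 rose and 2 fell, and in the slide-block fit 4 rose, Herpud1 among them, and none fell. Of 39 glycolysis and hypoxia genes 3 rose and 7 fell, with Vegfa at -0.43 (adjusted p = 8.6e-04) and Pfkfb3 at 0.35 (adjusted p = 1.2e-04). Dimmer probes gave -0.32 and -0.16 for Vegfa and 0.12 and 0.15 for Pfkfb3, and in the slide-block fit 2 of the group rose, Pfkfb3 among them, and 1 fell. Of 37 MYC family and ribosome biogenesis genes none rose and 6 fell, Wdr12 by 0.25 (adjusted p = 0.0063). That count was 2 without shCdk8-1 replicate 1 and 3 without shCdk8-1 replicate 3, shNTC replicate 1 or shNTC replicate 2. Over all genes 1132 fell in the first of these fits and 911 to 1012 in the others, against 1367 in the main fit. With slide in the fit none of this group fell and 1 rose, and further Wdr12 probes gave 0.06 and -0.31. Of 35 imprinted genes 9 rose and 1 fell, with Mest at 0.68 (adjusted p = 0.0021) and Peg12 at 0.64 (adjusted p = 3.7e-06). Of the imprinted genes 4 rose in the slide-block fit, Peg12 among them but not Mest, and none fell. Of 42 cell cycle genes 4 rose and 3 fell, not far from the 6.50% and 6.10% of all genes. Cdkn2b, an inhibitor of the CDK4 and CDK6 kinases, rose by 0.58 (adjusted p = 9.3e-06) and Ccnd1, cyclin D1, by 0.33 (adjusted p = 4.5e-04), while Ccnd3, cyclin D3, fell by 0.39 (adjusted p = 0.0041). Of this group 3 rose in the slide-block fit, Cdkn2b among them, and none fell; Ccnd1 and Ccnd3 lost their calls.

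**Figure D3:**
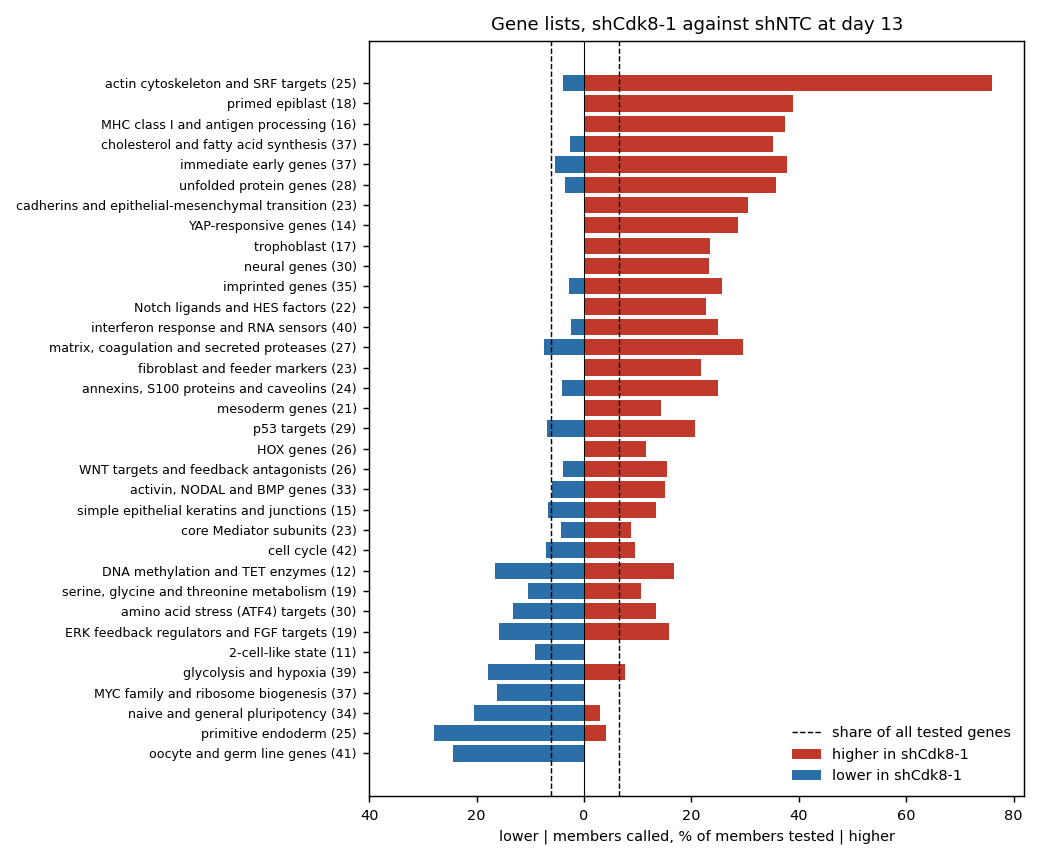
Share of each gene list called higher (right of 0) or lower (left of 0) in shCdk8-1 cells at day 13, in percent of the members tested, with the number tested in brackets. Dashed lines mark the shares of all genes, 6.50% higher and 6.10% lower. The actin and SRF list stands at the top with 19 of 25 members higher, and oocyte and germ line genes at the bottom with 10 of 41 lower.

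The actin group distinguished the 2 days of the same hairpin. At day 8, 3 shCdk8-1 arrays were set against 3 shNTC arrays of that day, so these values share no array with day 13. Over all genes 3775 (16.9%) were called at day 8. None of the 25 actin and SRF genes rose at day 8 and 10 fell (median -0.13), where 8.64% of all genes rose and 8.22% fell, against 19 risen and 1 fallen at day 13. The day 8 count of 10 became 3 with slide as a block, and none was called under median centring, where the median was 0.02. The difference between the days was called for 123 genes in all (0.549%), 89 (0.397%) toward higher at day 13 and 34 (0.152%) toward lower, and 12 of the 25 actin and SRF genes were among those 89.

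Acta2 was at -2.84, -3.01 and -3.06 with shCdk8-1 against -2.57, -2.71 and -2.66 with shNTC at day 8, and at -1.54, -1.49 and -1.51 against -2.89, -2.83 and -3.01 at day 13. Its difference was -0.33 at day 8 and 1.39 at day 13, and the change between days was 1.72 (SE 0.09, adjusted p = 5.1e-10). Acta1 was at -1.52, -1.84 and -1.87 with shCdk8-1 against -0.96, -0.99 and -1.18 with shNTC at day 8, below the control, and lay above it at day 13. Its shNTC arrays themselves stood at 0.38, 0.35 and 0.37 at day 13, above those of day 8. Actc1 (change 1.37), Tpm1 (0.73), Fhl2 (0.79), Cav1 (1.43) and Thbs1 (1.24) went the same way. The keratins Krt8 and Krt18, of simple epithelia, differed by -0.53 and -0.49 at day 8 and by 0.38 and 0.28 at day 13 (changes 0.91 and 0.77, adjusted p = 1.7e-06 and 2.8e-06).

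Fewer genes moved the other way. Id2, an inhibitor of helix-loop-helix factors and a BMP target, was 1.27 higher at day 8 and 0.47 higher at day 13 (change -0.81, adjusted p = 5.6e-05). Its shCdk8-1 values were similar at both days (-0.98, -1.12 and -1.18 at day 8, and -1.05, -1.14 and -1.15 at day 13), while its shNTC values stood at -2.44, -2.39 and -2.27 at day 8 and -1.54, -1.66 and -1.55 at day 13. Prickle1, of the planar polarity pathway, was 1.72 higher at day 8 and 0.58 higher at day 13 (change -1.14, adjusted p = 3.4e-08), although its second probe gave -0.01 at day 13. Of the 15 genes with the largest increases at day 13, 10 were also called higher at day 8, against 8.64% of all genes, and of the 15 with the largest decreases 14 were called lower, against 8.22%. Replicate 1 of shCdk8-1 at day 8 had ratios pulled toward 0 (slope 0.79 on the other replicates). Without it and a like shMed12-1 array 401 genes changed between the days, among them 14 actin and SRF genes, all toward higher at day 13. In the slide-block fit 32 genes did, 9 of them from the actin group, and with median centring 5 genes did, 1 of them from it.

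**Figure D4:**
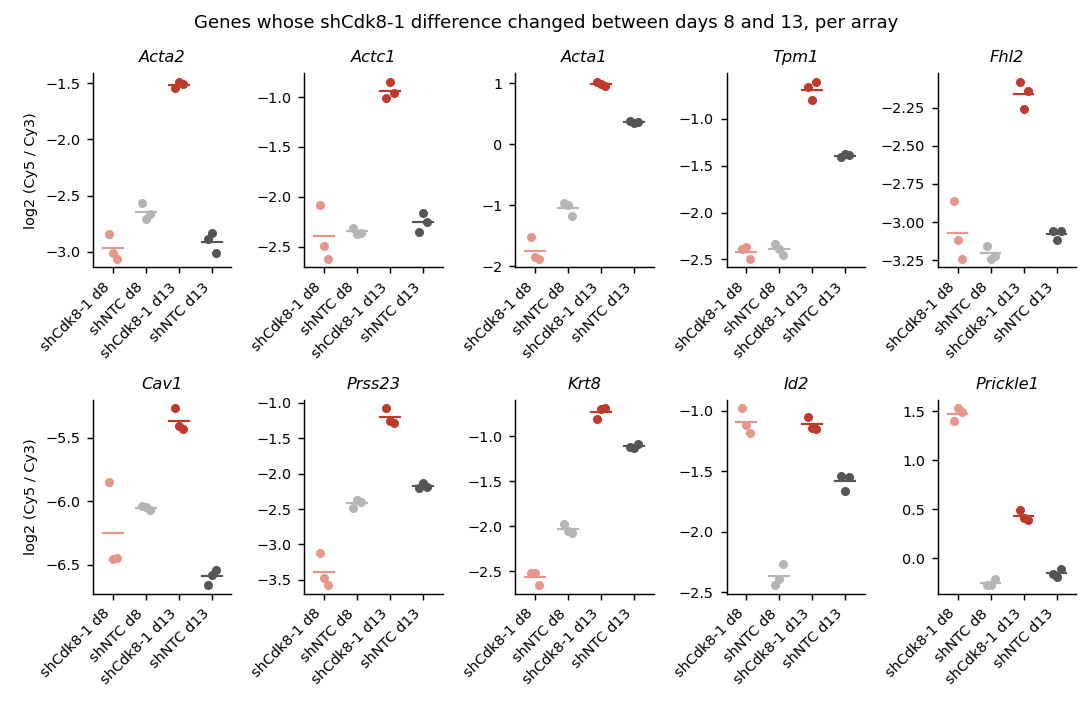
Log2 ratio of Cy5 over Cy3 for 10 genes at day 8 and day 13, with shCdk8-1 left of shNTC at each day. Points are the 3 arrays of a group and bars their means. Acta2 with shCdk8-1 lies below shNTC at day 8 (difference -0.33) and above it at day 13 (1.39), while the excess of Prickle1 is smaller at day 13 (0.58) than at day 8 (1.72).

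The shCdk8-1 cells differed from the shCdk8-2 cells of the same day in 2615 genes (11.7%), 1373 (6.13%) higher and 1242 (5.55%) lower, while 2822 differed from shNTC. Replicate 3 of shCdk8-2 had 48.9% of spots well above background, the lowest of the 24 arrays, against 64.2% and 69.6% on the other replicates. No fit of this contrast left it out. Cdk8 itself differed by -0.31 between shCdk8-1 and shCdk8-2 (adjusted p = 0.0072), but not with slide as a block (-0.19, adjusted p = 0.21). Against the shared shNTC arrays, Cdk8 was at -0.95 with shCdk8-1 and -0.64 with shCdk8-2. A slide-block fit had 1257 genes that differed between the hairpins.

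Some of the genes that changed most with shCdk8-1 lay closer to shNTC with shCdk8-2, though not always level with it. Acss1 was at -0.34, -0.54 and -0.48 with shCdk8-1, against -2.10 to -1.95 with shCdk8-2, and -1.73, -1.69 and -1.76 with shNTC (difference between hairpins 1.57, SE 0.08, adjusted p = 9.4e-11). Stac3 differed by 1.47 (adjusted p = 1.5e-08), Glod5 by 1.38 (adjusted p = 5.1e-09) and Hes6 by 0.94 (adjusted p = 9.4e-11). Reep4 was at -1.51, -1.31 and -1.44 with shCdk8-1, against -0.51, -0.37 and -0.24 with shCdk8-2 (-1.05, adjusted p = 1.2e-08), and Hal differed by -0.96 (adjusted p = 9.1e-08). Tbx3 differed by -0.85 (adjusted p = 2.1e-07), with -1.17 against shNTC for shCdk8-1 and -0.31 for shCdk8-2. All of these differences were also called with slide as a block. Acss1 lay below shNTC with shCdk8-2, and Tbx3 lay below it with both hairpins. Genes called against the shared shNTC arrays with each hairpin included Acta2, at 1.39 with shCdk8-1 and 0.58 with shCdk8-2 (adjusted p = 4.9e-06 for the second). Gbp2b was at 1.10 and 1.00, and Plac8 at -1.31 and -0.96.

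In some genes the hairpins lay on opposite sides of shNTC. Dnmt3l was at 4.97, 4.79 and 4.82 with shCdk8-1, against 5.90, 5.86 and 5.99 with shCdk8-2, with shNTC between them at 5.43, 5.33 and 5.45. The difference was -1.06 (adjusted p = 8.4e-07). Aire, the thymic autoimmune regulator (-1.12) and Itgb4, an epithelial integrin (-1.07) showed the same order. Dhrs7 also differed between the hairpins, by 1.46 (adjusted p = 5.4e-11), but lay below shNTC with both, at -0.13 with shCdk8-1 and -1.59 with shCdk8-2.

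By group, 13 cholesterol and fatty acid genes were higher with shCdk8-1 than with shCdk8-2 and 1 was lower, of 37 tested. Over all genes 6.13% were higher and 5.55% lower. Hmgcs1 differed by 0.54 (adjusted p = 4.7e-06) and Cyp51 by 0.46 (adjusted p = 7.1e-04), whereas Sqle differed by 0.09 (adjusted p = 0.46). Of 22 Notch and HES genes 8 were higher and none lower, of 30 amino acid stress genes 11 were higher and 1 lower, and of 42 cell cycle genes 8 were higher and 1 lower. The actin group differed less in number, with 4 higher and 2 lower of 25: Acta2 by 0.82, Actc1 by 0.80 and Fhl2 by 1.02 among those higher. Set against those same shNTC arrays, shCdk8-2 cells differed in 2587 genes (11.6%), 5.86% higher and 5.69% lower, and of the 25 actin genes 15 rose and 1 fell. With slide as a block 10 cholesterol, 4 Notch, 5 amino acid stress and 5 cell cycle genes were higher. Over all genes that fit had 692 higher and 565 lower, against 1373 and 1242 in the main fit.

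**Figure D5:**
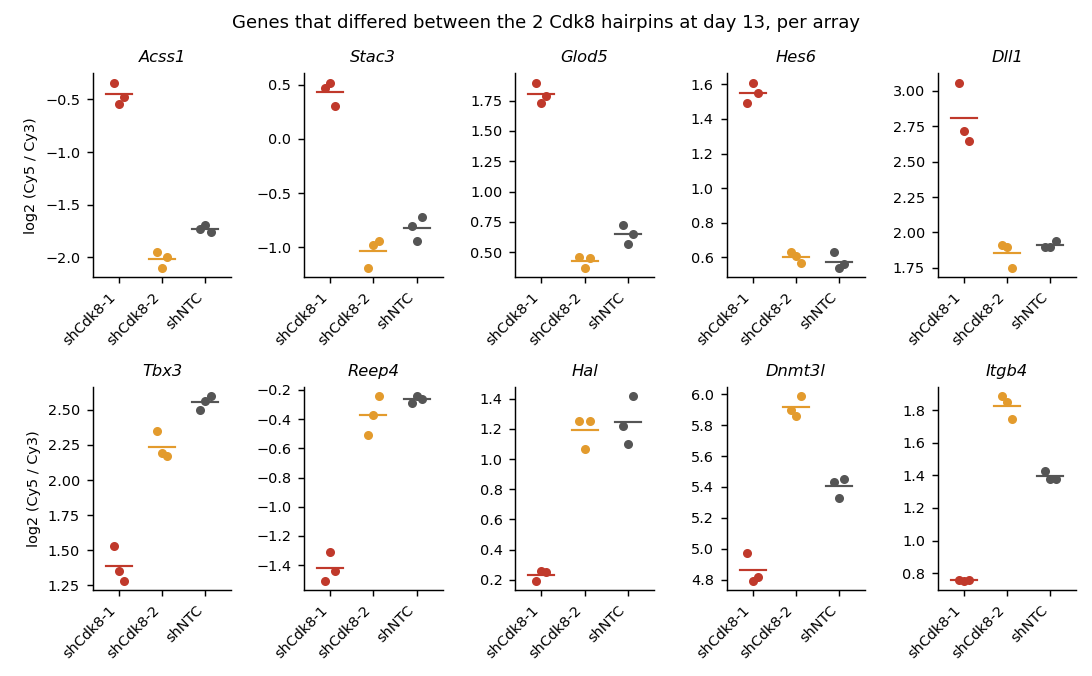
Log2 ratio of Cy5 over Cy3 at day 13 for 10 genes that differed between the 2 Cdk8 hairpins, with shCdk8-1 left, shCdk8-2 in the middle and shNTC right. Points are the 3 arrays of a group and bars their means. Acss1, Stac3, Glod5 and Hes6 are higher with shCdk8-1 than with either of the other hairpins plotted, and Dnmt3l and Itgb4 lie on opposite sides of shNTC in the 2 hairpins.

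Set against the mean of the Med12 hairpins, shCdk8-1 cells differed in 3867 genes (17.3%), 1877 (8.38%) higher and 1990 (8.89%) lower. Med12 is the subunit that activates the kinase within the module. The 5 genes highest relative to Med12 knockdown were Nsg2 (2.34, SE 0.31, adjusted p = 1.6e-05), Aass, of lysine breakdown (1.84), Notum, a WNT antagonist (1.73), Fgf18 (1.64) and Acss1 (1.55). Fgf18 was at 1.83, 1.91 and 1.87 with shCdk8-1, against 0.27, 0.34 and 0.31 with shMed12-1 and 0.16, 0.11 and 0.20 with shMed12-2. The lowest were Krt18 (-1.72, SE 0.04, adjusted p = 9.1e-16), 3830417A13Rik (-1.52), Krt8 (-1.39), Krt20 (-1.39) and the homeobox gene Rhox6 (-1.33). Krt18 was at -0.88, -0.93 and -0.95 with shCdk8-1, against 1.43, 1.38 and 1.40 with shMed12-1 and 0.17, 0.28 and 0.15 with shMed12-2. The shCdk8-1 arrays lay below every Med12 hairpin array in Krt18 and above every one in Fgf18, genes that were picked by the size of this difference.

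Of 25 actin and SRF genes none was higher and 19 were lower with shCdk8-1 than with the Med12 hairpins, Acta2 by -0.55 (SE 0.05, adjusted p = 3.9e-07) and Fhl2 by -0.51 (adjusted p = 1.4e-05). Of 17 trophoblast genes 1 was higher and 10 were lower. Of 30 neural genes 13 were higher and none lower, and of 22 Notch and HES genes 9 were higher and none lower, with Hes6 at 0.98 (adjusted p = 2.4e-12). Over all genes 8.38% were higher and 8.89% lower. The 2 Med12 hairpins disagreed in Hes6, at 0.06, 0.06 and 0.17 with shMed12-1 and 1.02, 1.04 and 1.07 with shMed12-2. With shNTC it lay between them, at 0.63, 0.54 and 0.56. The mean of the neural list was 0.32 to 0.57 with shMed12-1, 0.72 to 0.79 with shMed12-2 and 0.66 to 0.68 with shNTC. Replicate 3 of shMed12-1, with ratios pulled toward 0, is in this contrast. The 10 genes named above by size kept their calls with slide as a block.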

How the data were processed

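RNA of R1 cells was measured on Agilent 2-colour arrays. Images were read with Agilent's Feature Extraction program, release 10.7 per the submitters' processing notes. Each deposited scanner file holds median spot and background intensity in both channels, per the file headers, without normalization. The same program's own log10 ratio (red over green) stands beside them, per the file headers, and the series' value table, as deposited by the authors, is in log2 units (slope 1.00 against the scanner ratio on each array, so its direction is Cy5 over Cy3). Column medians of that table ran from 0.0270 to 0.1038 on the 6 arrays, so it was not centred on 0, and its filter is not given in the sources used.

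Intensities were corrected with normexp (offset 50) and log2 ratios normalized by loess within each array, with control and outlier spots at weight 0. No spot was saturated. Of 41174 probes, 22951 were named by RefSeq accession (GRCm38.p6, names only). A probe was kept (28304) where every array of 1 or more groups had it well above background in the Cy5 channel, 63 with a missing value were dropped, and the brightest probe stood for a gene, which left 22394 genes, 13731 with a symbol. Among 280 genes with several called probes, 8 had probes in both directions. Genes whose probes were not matched, Nanog, Med13 and Med12l among them, are not reported here.

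All 24 arrays entered 1 limma fit (limma 3.58.1, R 4.3.3) of 8 group means with 16 residual degrees of freedom. Tests were two-sided, with Benjamini-Hochberg adjustment over all genes and calls at an adjusted p under 0.05. The fit was tested on simulated data. Effects of the hairpin were set against day 8, shCdk8-2 and the Med12 hairpins by contrasts in the same fit. The number of arrays limits the precision.

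The members and gene lists were chosen with earlier results of these data known. Named genes were the kinase module, Pou5f1, Sox2, Klf4, Zfp42, Esrrb, Tbx3 and Myc, the 15 highest and 15 lowest called genes with a symbol and no overlap between groups, up to 6 called members of each list, and the 5 highest and 5 lowest genes of each further contrast, not all of which are reported here. Lists are described by counts and medians, without a set test. Alternatives were other normalizations and background corrections, the deposited ratios, the Cy5 channel alone, other probe rules, slide and replicate blocks, and leaving out arrays. Same-numbered arrays of the 2 groups did not deviate together (correlations 0.03, 0.07 and -0.04), so the numbers were not taken to pair them. Median intensities were used in place of the planned means.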

Additional observations from a re-analysis of the deposited data

Results flagged for a closer look

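For 30 of the genes named here the effect of shCdk8-1 differed between day 13 and day 8, by the limma contrast of the 2 effects with adjusted p under 0.05. Values are the day 13 effect minus the day 8 effect on the log2 scale. In all 21 differences were positive and 9 negative. These genes include those chosen as the 5 highest and 5 lowest of this contrast, so their number is no measure of how common such differences were.

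Positive differences among actin and SRF genes were those of Acta2 (1.72), Actc1 (1.37), Acta1 (1.32), Fhl2 (0.79) and Tpm1 (0.73). Matrix, coagulation and protease genes with a positive difference were Prss23 (1.94), F3 (1.37), Thbs1 (1.24), Serpinh1 (0.56) and Sparc (0.48). The remaining positive differences, in surface, filament, signalling and cell cycle genes, were those of Cav1 (1.43), Krt8 (0.91), Phlda1 (0.86), Anxa3 (0.80), Krt18 (0.77), Anxa1 (0.74), Cdkn2b (0.69), Wnt6 (0.68), Vim (0.67), Ccn1 (0.52) and Nkx2-5 (0.43).

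Negative differences were those of Rpl39l (-0.38), Hes6 (-0.50), Plac8 (-0.57), Stac3 (-0.68), Ctsh (-0.72), Id2 (-0.81), S100g (-0.90), Aqp8 (-1.09) and Prickle1 (-1.14). S100g was not well above background in either group at day 13.

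All 30 kept their call and direction without the 2 arrays whose ratios were pulled toward 0. With slide as a block all 30 kept their direction and 16 their call.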

How the results depend on the processing

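No named gene called against shNTC changed direction under any alternative run. Of all 2822 called genes 2792 kept their direction in the Cy5 channel alone, 2810 with the mean of a gene's probes and 2820 with the Feature Extraction ratio. Cdk8 stayed lower and called throughout, at -1.08 (Cy5 channel alone) to -0.69 (mean of a gene's probes), -0.73 with slide as a block and -1.01 to -0.91 with each array left out in turn. The arrays left out in turn, here and throughout, were only the 6 day 13 arrays of shCdk8-1 and shNTC. The 2822 genes called against shNTC became 347 with median centring in place of loess (138 higher, 209 lower), 890 with slide as a fixed block, 4324 without background subtraction, 4770 with the Feature Extraction log ratio and 4801 with the authors' value table, and 1941 to 2263 with each array left out. In Cy5 alone the split was 1513 higher to 2127 lower. Genes at least 2-fold apart numbered 31, against 236 and 223 with the Feature Extraction ratio and the authors' value table, and 29 to 36 with each array left out. The hairpin difference of 2615 genes became 268, 1257, 4008, 4735 and 4743 in the same order of settings. It was 1925 to 2472 with each of those 6 arrays left out, of which the shNTC arrays are not part of this contrast. No shCdk8-2 array was left out. The day difference of 123 genes became 5, 32, 357, 352 and 356 in that order, 309 in the Cy5 channel alone, 401 without the 2 arrays with ratios pulled toward 0, and 66 with only the groups compared. It was 68 to 91 with each of the 6 day 13 arrays left out. It stood at 68 without shNTC replicate 1, 73 without shNTC replicate 2 or 3, 78 without shCdk8-1 replicate 3 and 82 without shCdk8-1 replicate 1, all of day 13. No day 8 array was left out in turn. The Med12 difference of 3867 genes became 717 with median centring, and 2882 to 3691 with each of those 6 arrays left out, none of them a Med12 array. Of 184 further genes named here and called against shNTC, 81 kept their call in the slide-block fit, 68 under median centring, 180 with the Feature Extraction ratio and 155 to 162 with an array left out, and all kept their direction. The cause of these changes was not tested. With the replicate number as a block 2737 genes were called; the pairing check gave correlations of 0.03, 0.07 and -0.04, so the numbers are shared without pairing the arrays, and the block moved no count of calls by more than 1.5 times. Dim genes are limited by background, since 62.9% to 72.4% of spots per array stood well above it.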
